A study of Mus musculus with 24 samples.

Results

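The interferon-stimulated and RNA-sensing genes followed here are 34 genes chosen by name out of the 55291 gene symbols in the count table. They comprise cytosolic sensors of viral RNA, the regulatory factors that respond to interferon, antiviral effectors, antigen processing genes and 1 chemokine. The choice was made with results of these data in view, and *Ifih1* was included because its response to copper appeared to differ between the cell lines, so its values with and without copper are described here with no test. Of the 34 genes, 29 had enough counts over the 24 libraries to be tested. The other 5 were too low to measure: *Oas1a* had 10 counts in all libraries together, *Oas2* had 22, *Mx1* had 26, *Psmb8* had 34 and *Psmb9* had 32.

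RNA-seq was performed on C2C12 cells, an established mouse myoblast line, that stably expressed a scrambled shRNA (scr) or an shRNA against *Baf180*, *Baf250a* or *Brd9*, subunits that mark the PBAF, BAF and ncBAF forms of the SWI/SNF chromatin remodeling complex. Each of the 4 lines was grown without added metal (NT), with 100 µM CuSO4 (Cu) or with 50 µM ZnSO4 (Zn) for 48 h, which gave 12 groups of 2 replicates. The sample labels call the cells primary myoblasts and the knockdown lipofectamine-mediated, whereas the study's methods describe lentiviral shRNA in C2C12 cells selected with puromycin. All 4 lines, scr included, therefore carried a lentiviral insertion and the drug resistance, and an effect of a knockdown (KD) cannot be told apart from any other lasting difference between one stable line and another.

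Cells detect viral double-stranded RNA with helicases such as the product of *Ifih1*, known as MDA5, which signals through the mitochondrial adaptor encoded by *Mavs* and switches on type I interferon. Secreted interferon then acts through STAT and IRF factors, including the products of *Stat2* and *Irf9*, which bind the interferon-stimulated response element (ISRE) in the promoters of interferon-stimulated genes. The induced products block viral RNA and protein synthesis, tag proteins with ISG15 and present peptides on class I molecules, and many of these genes are transcribed at a low level in cells that have met no virus.

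Library totals ran from 495778 counts in *Baf250a* KD Zn replicate 2 to 75179394 in scr Zn replicate 2, and the second lowest total was 12719173. In the library of 495778 counts, 1 read pair is worth 1.97 CPM (edgeR's counts scaled to library size), and each result that rests on it is given with that in mind. The targeted genes checked the labels: *Pbrm1*, which encodes *Baf180*, ranged from 42.1 to 75.7 CPM in the *Baf180* KD libraries and from 97.8 to 236 CPM in scr, *Arid1a*, which encodes *Baf250a*, from 91.9 to 146 CPM against 268 to 305 CPM, and *Brd9* from 13.8 to 17.6 CPM against 26.7 to 31.7 CPM. Myoblast genes were present in every line, with *Myod1* between 68.2 and 153 CPM, while *Pax7* and *Msc* were each at 0 in 1 library. The summed level of the 8 myoblast markers was 3567 to 4934 CPM in scr and 1577 to 2827 CPM in the KD lines. That of 5 endothelial markers was 4.08 to 6.05 CPM in scr and 0 to 2.20 CPM in the KD lines. Among these 5, *Kdr* reached 5.37 CPM and *Tek* 1.00 CPM, while *Pecam1* stayed at or below 0.377 CPM. *Cdh5* was at 0 in 20 libraries and *Emcn* in 22, so the markers do not move as a set. The sum of 8 macrophage and leukocyte markers was 3.12 to 9.86 CPM over all libraries. Of these, *Cd68* was present in every library, at 2.98 to 6.14 CPM, and *Lyz2* was at 0 in 3 libraries. *Tyrobp* was at 0 in all 24 libraries and *Adgre1* in 22, so the list is not uniformly absent. The myoblast and endothelial sums differed between scr and KD libraries in the same direction as most of the genes described next, and their part in those results was not tested. In these bulk samples, fewer cells of a type and less RNA per cell cannot be told apart.

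In scr NT myoblasts the members spanned a wide range of levels. Divided by exon length, *B2m*, the light chain of class I molecules, stood highest at 188 ± 20.7 CPM per kb (SD, n = 2), followed by *Isg15* at 17.8 ± 2.76 CPM per kb and *Ifi35* at 12.6 ± 0.105 CPM per kb. The factors *Irf1*, *Irf3* and *Stat2* lay between 8.63 and 10.1 CPM per kb on the same scale. The sensor *Ifih1* was at 1.01 ± 0.226 CPM per kb and its relative *Dhx58* at 0.560 ± 0.0342 CPM per kb. *Mavs*, the adaptor of the *Ifih1* product, was at 9.01 ± 0.679 CPM per kb. *Tap1*, a subunit of the peptide transporter, was at 0.156 ± 0.0264 CPM per kb, the lowest of the tested members after *Ifi44*.

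**Figure D1:**
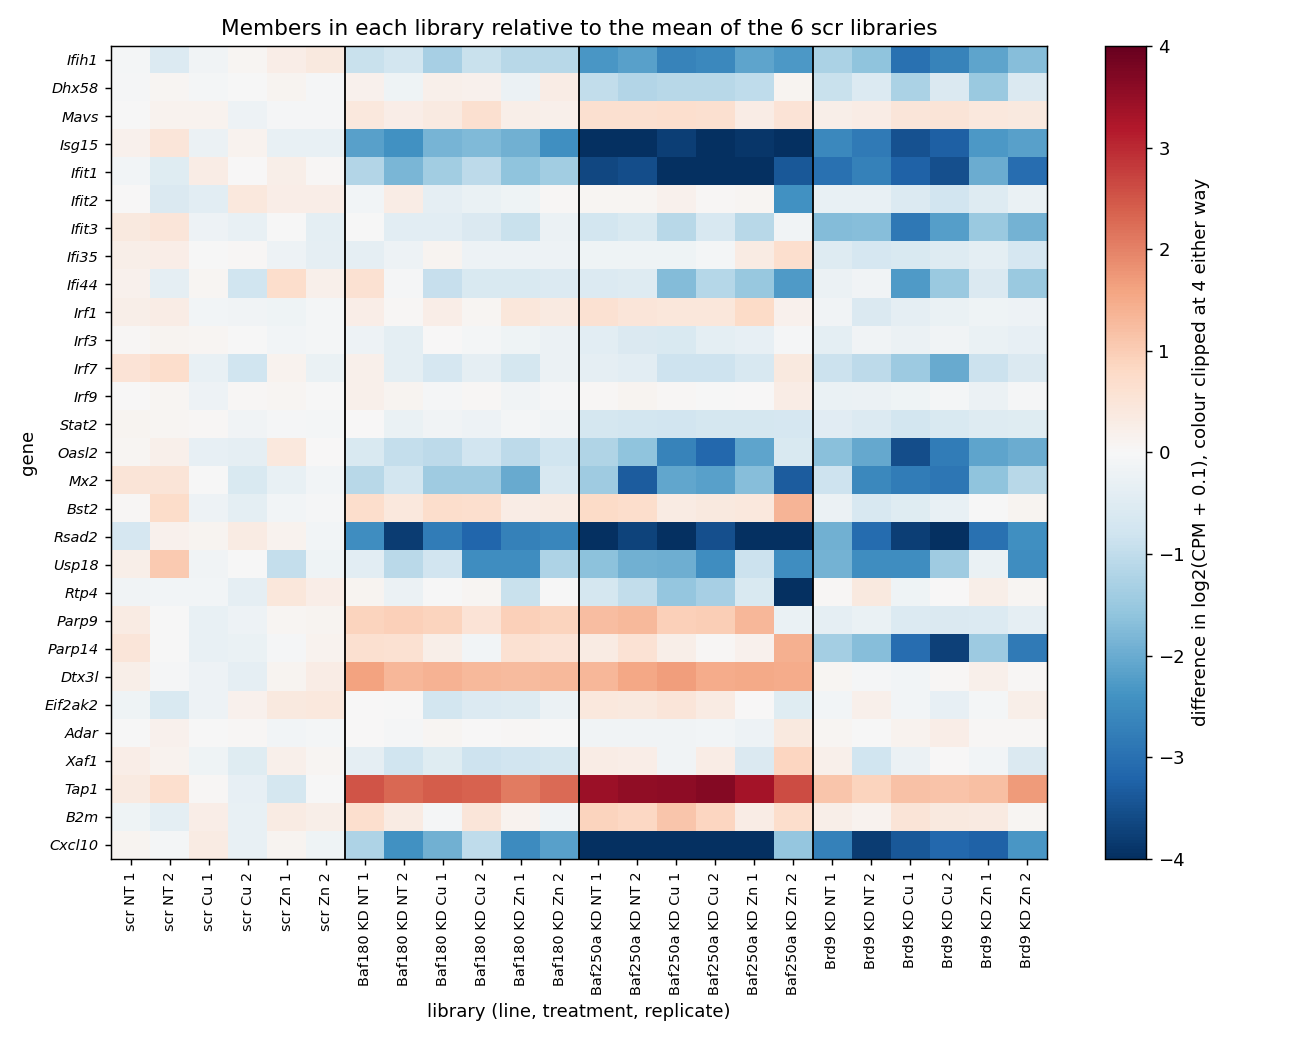
The 29 tested members (rows) in the 24 libraries (columns, by line, treatment and replicate); colour is the difference in log2(CPM + 0.1) from the mean of the 6 scr libraries, clipped at 4 either way. *Isg15*, *Ifit1*, *Rsad2* and *Cxcl10* are lower in KD libraries of every line, and *Tap1* is higher in all of them.

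The first comparison asked how the untreated KD lines differed from scr. *Isg15*, *Ifit1*, *Rsad2* and *Cxcl10* were called lower in each KD line, and *Tap1* and *B2m*, the 2 antigen processing genes that could be tested, were called higher in *Baf180* and *Baf250a* KD myoblasts. By edgeR's quasi-likelihood test at an adjusted p under 0.05, and with *Ifih1* left out, 14 of 27 tested members were called in *Baf180* KD (10 lower, 4 higher), 19 of 27 in *Baf250a* KD (13 lower, 6 higher) and 13 of 26 in *Brd9* KD (12 lower, 1 higher). Among all tested genes 41% were called in *Baf180* KD, 57.8% in *Baf250a* KD and 29.2% in *Brd9* KD. The lower calls alone made up 19.3%, 28.9% and 14.1% of all tested genes in the same order, and the higher calls 21.7%, 28.9% and 15.1%. The median log2 fold change of these members was -0.13 in *Baf180* KD, -0.45 in *Baf250a* KD and -0.59 in *Brd9* KD. That of all tested genes was 0.03, 0.00299 and 0.00961. The medians of the members include 3, 4 and 3 genes that reached the count minimum only through scr, given below. Such genes could enter only as lower values, so these medians are no separate support for a shift. The count of members called in *Brd9* KD fell to 5 without *Brd9* KD NT replicate 2, and that in *Baf180* KD to 9 and 8 without its replicate 1 and replicate 2.

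**Figure D2:**
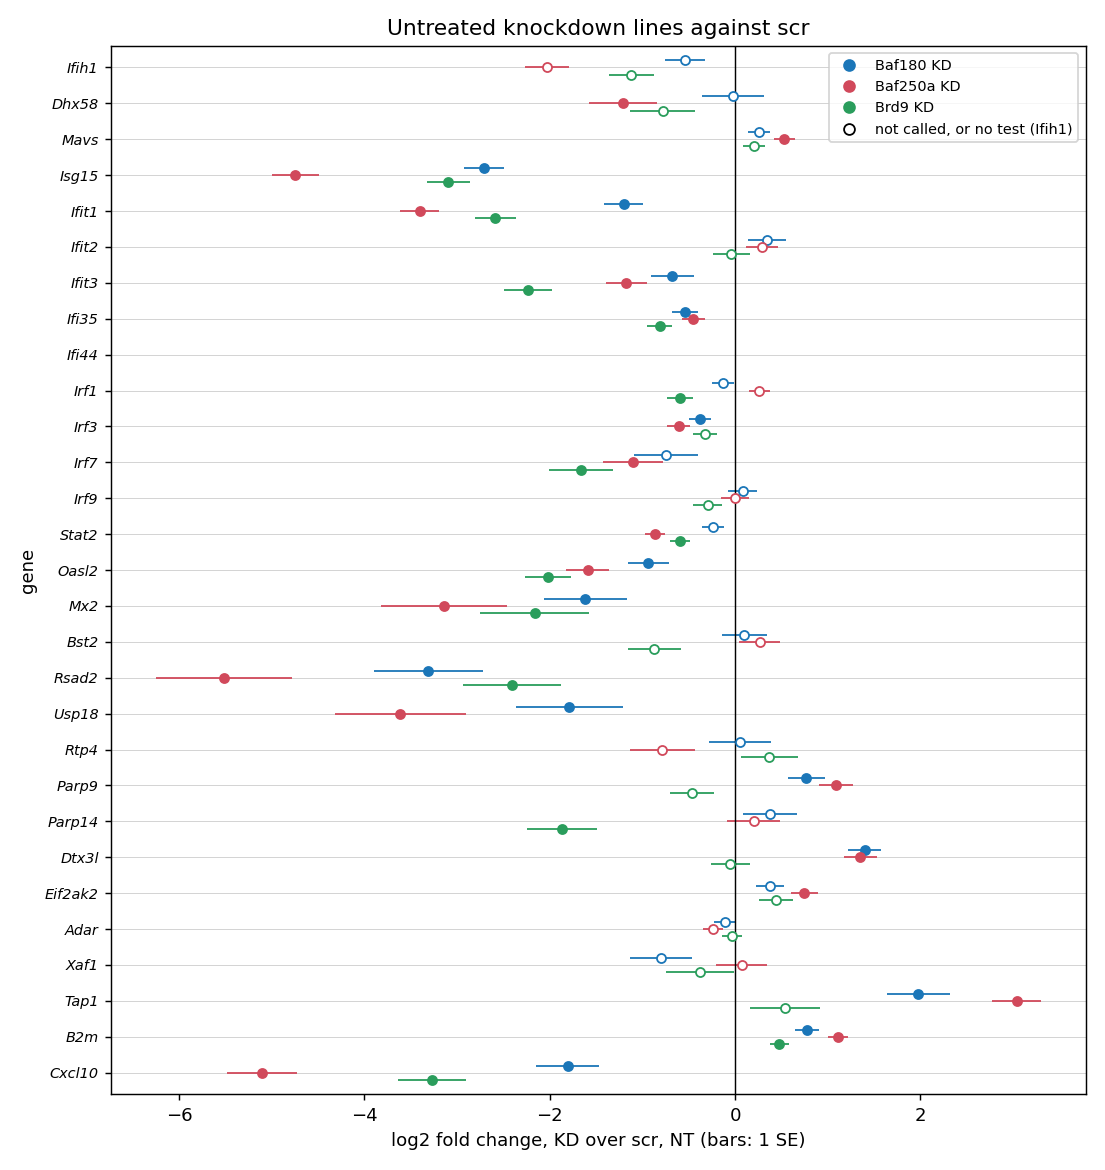
Log2 fold change of each member in the untreated KD lines over scr (points; bars are 1 SE of the edgeR fit; filled points were called at an adjusted p under 0.05, and *Ifih1* was not tested). *Isg15* lies at -2.71, -4.74 and -3.09 in *Baf180*, *Baf250a* and *Brd9* KD, and *Tap1* lies at 1.98 and 3.04 in the first pair of lines.

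Of the 26 members other than *Ifih1* tested in all 3 KD lines, 8 were called lower in each untreated line: *Isg15*, *Ifit1*, *Ifit3*, *Ifi35*, *Oasl2*, *Mx2*, *Rsad2* and *Cxcl10*. Over all genes tested in the 3 lines, 10.1% were called lower in each of them. *B2m* was the 1 member called higher in each, against 10.5% of all genes. Of these 8 genes, *Mx2* and *Rsad2* reached the count minimum only through the scr NT libraries in all 3 lines, and *Cxcl10* did so in *Baf250a* and *Brd9* KD, so these genes could be tested only because scr was high and their calls add no support to the count. With *Usp18*, such genes made up 3 of the 10 members called lower in *Baf180* KD, 4 of 13 in *Baf250a* KD and 3 of 12 in *Brd9* KD. The 3 comparisons share the scr NT libraries, so a low or high value there enters all of them.

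The promoters of these genes were searched for the core letters of the ISRE, which are GAAA, any 2 bases and GAAA again, read on both strands, since they are the members that moved together. RefSeq promoter windows of build GRCm38.p6, from 250 bases before to 50 bases after the annotated start, were at hand for 26 of the 34 members, and 11 of them (42.3%) held a match. Of 27025 genes with a window, 1079 (3.99%) held one. The members were chosen by name as interferon-stimulated genes, so the higher share can follow from that choice alone and is no result about the lines. Among the 8 genes lower in every untreated KD line, 7 had a window and 5 held a match, and these 5 are printed with *B2m*, which moved the other way. Each stretch is given 5′ to 3′ on the strand of its gene, ends before the annotated start, and shows every match in capitals, with overlapping matches run together.
*Isg15*, chr4:156200855-156200916, minus strand: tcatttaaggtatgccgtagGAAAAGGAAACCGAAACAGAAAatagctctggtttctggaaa
*Ifit1*, chr19:34640765-34640833, plus strand: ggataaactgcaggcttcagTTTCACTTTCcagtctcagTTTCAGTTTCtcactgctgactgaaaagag
*Ifit3*, chr19:34583353-34583436, plus strand: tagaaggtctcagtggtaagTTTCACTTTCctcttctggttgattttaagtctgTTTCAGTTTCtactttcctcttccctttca
*Rsad2*, chr12:26456543-26456592, minus strand: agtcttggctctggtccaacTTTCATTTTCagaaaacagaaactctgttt
*Cxcl10*, chr5:92349073-92349122, minus strand: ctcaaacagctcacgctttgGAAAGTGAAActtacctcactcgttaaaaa
*B2m*, chr2:122147528-122147577, plus strand: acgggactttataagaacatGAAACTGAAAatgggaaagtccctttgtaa

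*Isg15* held 3 overlapping matches, the first of them beginning 78 bases before the start, and *Ifit1* and *Ifit3* each held 2. The window of *Tap1*, which was called higher in *Baf180* and *Baf250a* KD, held none, and neither did those of *Ifi35* and *Oasl2*, which were lower. Matches were also held by *Eif2ak2*, called higher in *Baf250a* KD, and by *Bst2*, not called in any untreated line. The remaining matches were in *Stat2*, called lower in *Baf250a* and *Brd9* KD, in *Ifih1*, and in *Oas1a*, which was too low to measure. A match describes the letters of a window and is not a measured binding site.

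*Isg15*, the ubiquitin-like protein that is joined to newly made proteins, showed one of the widest differences. Its scr NT libraries held 12.01 and 14.96 CPM, against 2.29 and 1.89 CPM in *Baf180* KD NT, 0.504 and 0.518 CPM in *Baf250a* KD NT and 1.71 and 1.40 CPM in *Brd9* KD NT. Every KD library lay below both scr libraries, and both *Baf250a* KD libraries lay below those of the other KD lines. The log2 fold change was -2.71 ± 0.22 (SE, n = 2 against 2) in *Baf180* KD (edgeR adjusted p = 2.25e-06), -4.74 ± 0.26 in *Baf250a* KD (edgeR adjusted p = 9.46e-09) and -3.09 ± 0.23 in *Brd9* KD (edgeR adjusted p = 0.000123). *Usp18*, the protease that removes ISG15 from proteins, was scarce, with 32 counts over both scr NT libraries, 11 in *Baf180* KD and 3 in *Baf250a* KD. It reached the count minimum only through scr, so that its lower calls in those 2 lines are no separate support, and that in *Baf180* KD was lost in 3 of the 4 fits without 1 library. It was not tested in *Brd9* KD NT.

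The IFIT proteins bind viral RNA that lacks the methyl marks of host transcripts. *Ifit1* was at 20.3 and 15.6 CPM in scr NT, at 9.68 and 6.10 CPM in *Baf180* KD, at 1.67 and 1.79 CPM in *Baf250a* KD and at 2.69 and 3.27 CPM in *Brd9* KD. The groups did not overlap with scr in any line, and the *Baf180* KD libraries lay between scr and the other KD lines. Its log2 fold change was -1.20 ± 0.21 in *Baf180* KD (edgeR adjusted p = 0.000963), -3.40 ± 0.21 in *Baf250a* KD (edgeR adjusted p = 3.01e-08) and -2.59 ± 0.22 in *Brd9* KD (edgeR adjusted p = 0.000206).

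*Ifit3*, its partner, ran in another order. It was at 5.76 and 6.19 CPM in scr NT, 4.35 and 3.21 CPM in *Baf180* KD, 2.60 and 2.83 CPM in *Baf250a* KD and 1.24 and 1.27 CPM in *Brd9* KD, so the *Brd9* KD libraries were lowest. The log2 fold change in *Brd9* KD was -2.24 ± 0.26 (edgeR adjusted p = 0.000828), and in *Baf180* KD it was -0.68 ± 0.23 (edgeR adjusted p = 0.0352). The near-identical copy *Ifit3b* lies in the same cluster, and because reads that map to more than 1 place were dropped, the level of *Ifit3* is uncertain. *Ifit2* was at 21.9 and 14.5 CPM in scr NT and between 17.4 and 26.3 CPM over the 6 untreated KD libraries. Both *Baf250a* KD libraries lay above scr, those of the other lines overlapped it, and *Ifit2* was not called in any line. *Ifi35*, which encodes an interferon-induced leucine zipper protein, was at 21.71 and 21.97 CPM in scr NT and between 11.6 and 16.3 CPM in the untreated KD libraries. It was called lower in all 3 lines, with log2 fold changes of -0.54, -0.45 and -0.82 in *Baf180*, *Baf250a* and *Brd9* KD.

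**Figure D3:**
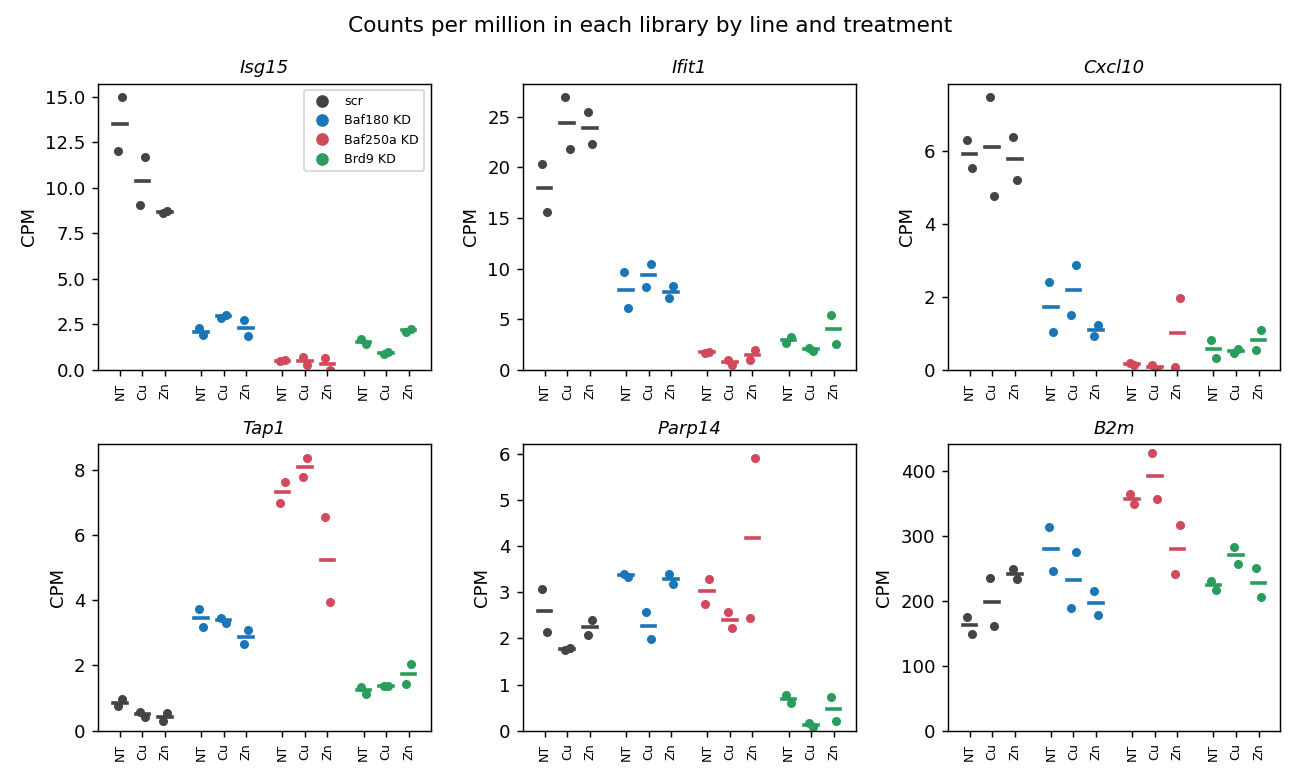
CPM of 6 members in each library (points) with the mean of the 2 replicates (bars), by line and treatment (NT, Cu, Zn), on linear axes that start at 0. *Isg15*, *Ifit1* and *Cxcl10* are lower in all KD groups, *Tap1* is highest in *Baf250a* KD, *Parp14* is lowest in *Brd9* KD, and *B2m* overlaps between lines; the single high points of *Cxcl10* and *Parp14* in *Baf250a* KD Zn come from the library of 495778 counts.

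*Cxcl10*, the chemokine that draws activated T cells, was at 6.32 and 5.55 CPM in scr NT. It was at 2.42 and 1.03 CPM in *Baf180* KD, at 0.194 and 0.141 CPM in *Baf250a* KD and at 0.827 and 0.334 CPM in *Brd9* KD, with no overlap with scr. The *Baf250a* KD value rests on 8 counts over both libraries, against 223 in scr. The log2 fold change was -1.80 ± 0.34 in *Baf180* KD (edgeR adjusted p = 0.00145), -5.10 ± 0.37 in *Baf250a* KD (edgeR adjusted p = 1.56e-07) and -3.27 ± 0.36 in *Brd9* KD (edgeR adjusted p = 0.000719).

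Of the genes that act on viral RNA, *Oasl2*, a member of the oligoadenylate synthetase family, was lower in every KD line. It was at 6.445 and 7.004 CPM in scr NT, 3.99 and 3.13 CPM in *Baf180* KD, 2.60 and 1.93 CPM in *Baf250a* KD and 1.86 and 1.40 CPM in *Brd9* KD. Its log2 fold change ran from -0.94 in *Baf180* KD (edgeR adjusted p = 0.00614) to -2.02 in *Brd9* KD (edgeR adjusted p = 0.00117), with all KD libraries below scr. *Eif2ak2* encodes PKR, the kinase that halts translation on double-stranded RNA, and it moved the other way in *Baf250a* KD. It was at 27.2 and 19.8 CPM in scr NT and at 40.5 and 39.7 CPM in *Baf250a* KD, a log2 fold change of 0.75 ± 0.14 (edgeR adjusted p = 0.000718), while *Baf180* KD was at 30.9 and 30.4 CPM and *Brd9* KD at 28.3 and 34.9 CPM, neither of them called. *Adar*, the RNA editing enzyme, was at 67.7 and 76.9 CPM in scr NT and between 62.7 and 72.2 CPM in the untreated KD libraries, and it was not called in any of the 9 comparisons of a KD line with scr.

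Among the antiviral membrane and GTPase effectors, *Rsad2*, which encodes viperin, had 85 counts over both scr NT libraries, 10 in *Baf180* KD, 2 in *Baf250a* KD and 14 in *Brd9* KD. It was at 1.502 and 2.774 CPM in scr NT and at or below 0.569 CPM in every untreated KD library. *Mx2* had 50 counts over the scr NT libraries and 20, 7 and 10 over those of *Baf180*, *Baf250a* and *Brd9* KD. Both genes were called lower in all 3 lines, but each could be tested only through its scr libraries, as given above, and the low counts limit how well their fold changes are known. *Bst2*, the tetherin that holds budding virions at the cell surface, was at 4.69 and 7.64 CPM in scr NT and between 2.87 and 7.88 CPM in the untreated KD libraries and was not called. *Rtp4* was not called in any untreated line either.

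Of the 5 interferon regulatory and signalling factors, 1 was called lower in *Baf180* KD, 3 in *Baf250a* KD and 3 in *Brd9* KD. Of all tested genes 19.3%, 28.9% and 14.1% were called lower in the same order, so 1 of 5 in *Baf180* KD stood near the background. Several of these calls were lost without 1 library, as given below. *Irf7*, which amplifies the interferon response, was at 2.19 and 2.46 CPM in scr NT, 1.70 and 1.11 CPM in *Baf180* KD, 1.13 and 1.08 CPM in *Baf250a* KD and 0.775 and 0.668 CPM in *Brd9* KD. It was called lower in *Baf250a* KD with a log2 fold change of -1.10 ± 0.33 (edgeR adjusted p = 0.0113) and in *Brd9* KD with -1.66 ± 0.35 (edgeR adjusted p = 0.0110), and not in *Baf180* KD, where it was -0.75 ± 0.35. *Stat2* was lower in *Baf250a* KD, with a log2 fold change of -0.86, and in *Brd9* KD, with -0.59. *Irf3*, the factor activated directly by *Mavs* signalling, was lower in *Baf180* KD, with a log2 fold change of -0.38, and in *Baf250a* KD, with -0.61. *Irf1* was at 39.6 and 40.9 CPM in scr NT and at 30.2 and 22.6 CPM in *Brd9* KD, where it was called lower with a log2 fold change of -0.60 ± 0.14 (edgeR adjusted p = 0.0181). In *Baf250a* KD it was at 51.3 and 47.4 CPM, above both scr libraries, and was not called. *Irf9* was not called in any of the 9 comparisons with scr.

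*Parp14*, *Parp9* and *Dtx3l* lie beside each other on chromosome 16, and *Parp9* and *Dtx3l* encode partners in 1 ubiquitin ligase complex. *Dtx3l* was at 6.51 and 5.32 CPM in scr NT, at 17.1 and 14.2 CPM in *Baf180* KD, at 14.2 and 16.5 CPM in *Baf250a* KD and at 5.84 and 5.41 CPM in *Brd9* KD. It was called higher in *Baf180* KD with a log2 fold change of 1.40 ± 0.18 (edgeR adjusted p = 9.97e-05) and in *Baf250a* KD with 1.35 ± 0.17 (edgeR adjusted p = 2.92e-05), whereas the *Brd9* KD libraries lay within the range of scr. *Parp9* followed it, with log2 fold changes of 0.77 in *Baf180* KD and 1.09 in *Baf250a* KD. *Parp14* showed another order: it was at 3.07 and 2.14 CPM in scr NT, 3.41 and 3.34 CPM in *Baf180* KD, 2.76 and 3.30 CPM in *Baf250a* KD and 0.775 and 0.601 CPM in *Brd9* KD. It was called lower in *Brd9* KD with a log2 fold change of -1.87 ± 0.38 (edgeR adjusted p = 0.00981) and was not called in the other lines. The difference between the KD lines was not tested.

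Of the 4 antigen processing genes, *Tap1* and *B2m* could be tested. *Tap1* was at 0.751 and 0.955 CPM in scr NT, at 3.72 and 3.17 CPM in *Baf180* KD, at 6.98 and 7.63 CPM in *Baf250a* KD and at 1.34 and 1.14 CPM in *Brd9* KD. Every KD library lay above both scr libraries, and the *Baf250a* KD libraries were the highest. The log2 fold change was 1.98 ± 0.34 in *Baf180* KD (edgeR adjusted p = 0.000836) and 3.04 ± 0.27 in *Baf250a* KD (edgeR adjusted p = 8.30e-07), and in *Brd9* KD it was 0.54 ± 0.38 and was not called. *Psmb8* and *Psmb9*, the immunoproteasome subunits beside it on chromosome 17, were among the 5 genes too low to measure.

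*B2m* was at 175 and 149 CPM in scr NT, 314 and 246 CPM in *Baf180* KD, 365 and 349 CPM in *Baf250a* KD and 231 and 217 CPM in *Brd9* KD. All untreated KD libraries lay above scr, with log2 fold changes of 0.77, 1.11 and 0.48 in the same order (edgeR adjusted p = 0.000605, 2.32e-06 and 0.0139). In *Brd9* KD the call for *B2m* was lost with a correction for GC content and length, where the edgeR adjusted p reached 0.436, and with all 24 libraries in the fit. *Xaf1*, a pro-apoptotic factor, was not called in any untreated line.

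Among the sensors and the adaptor of *Ifih1*, *Mavs* was called higher in *Baf250a* KD. It went from 28.5 and 31.7 CPM in scr NT to 44.3 and 44.6 CPM, with a log2 fold change of 0.53 ± 0.11 (edgeR adjusted p = 0.00154). *Dhx58*, the relative of *Ifih1* that tunes its activity, was called lower in *Baf250a* KD with a log2 fold change of -1.21 ± 0.37 (edgeR adjusted p = 0.0133), at 0.854 and 0.754 CPM against 1.75 and 1.91 CPM in scr NT.

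Several calls in the untreated lines did not hold when 1 of the 4 libraries compared was left out. In *Baf180* KD, leaving out replicate 1 ended those of *Ifi35*, *Irf3*, *Mx2*, *Usp18* and *Parp9* (edgeR adjusted p of 0.0546 to 0.0948), leaving out replicate 2 those of *Ifit3*, *Irf3*, *Oasl2*, *Mx2*, *Usp18* and *Parp9* (0.0593 to 0.234), and leaving out scr NT replicate 2 those of *Ifit3*, *Mx2* and *Usp18* (0.0683 to 0.357). In *Baf250a* KD, the calls of *Dhx58*, *Ifi35* and *Irf7* ended without replicate 1 (edgeR adjusted p of 0.0629 to 0.0843) and without replicate 2 (0.0754 to 0.0963), and those of *Dhx58* and *Irf7* without scr NT replicate 2 (0.0606 and 0.0566). In *Brd9* KD, leaving out replicate 2 ended those of *Ifi35*, *Irf1*, *Irf7*, *Stat2*, *Mx2*, *Rsad2*, *Parp14* and *B2m* (edgeR adjusted p of 0.0515 to 0.164), leaving out replicate 1 those of *Irf7* and *B2m* (0.0526 and 0.113), and leaving out scr NT replicate 2 that of *Rsad2* (0.0521). Each kept its direction. In *Baf250a* KD the log2 fold changes of the calls that were lost stayed close to those over all 4 libraries, between -1.32 and -1.13 for *Dhx58* and between -1.14 and -1.02 for *Irf7*.

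A wider list of other interferon pathway genes, of which 105 were found in the table, was compared in the same way, and more of its calls were higher than lower in *Baf180* and *Baf250a* KD. In *Baf180* KD NT 39 of 81 tested genes were called (23 higher, 16 lower), in *Baf250a* KD NT 52 of 83 (33 higher, 19 lower) and in *Brd9* KD NT 29 of 77 (10 higher, 19 lower), which is 48.1%, 62.7% and 37.7% of the list beside 41%, 57.8% and 29.2% of all tested genes. Its median log2 fold change was 0.18, 0.24 and -0.15. The mean of *Lgals9*, which encodes galectin 9, was 6.57 CPM in scr NT and 33.8, 62.7 and 18.0 CPM in *Baf180*, *Baf250a* and *Brd9* KD, and it was called higher in each. *Tap2*, the partner of *Tap1* in the peptide transporter, rose from 1.98 to 13.8 CPM in *Baf250a* KD, beside *Iigp1*, from 0.108 to 0.902 CPM. In *Baf180* KD the chemokine gene *Ccl2* rose from 3.93 to 17.9 CPM and the class I gene *H2-T23* from 3.39 to 14.8 CPM, and in *Brd9* KD *Slfn9* rose from 4.43 to 11.0 CPM and *Nlrc5*, a regulator of class I genes, from 1.51 to 3.15 CPM. Among the widest falls in the list, the mean of *Ddx60* was 1.40 CPM in scr NT and 0.316, 0.0471 and 0.129 CPM in *Baf180*, *Baf250a* and *Brd9* KD. *Oasl1* fell from 4.07 to 0.862 CPM in *Baf180* KD and to 0.0665 CPM in *Baf250a* KD. *Cmpk2* fell from 0.825 to 0.131 CPM in *Baf180* KD and 0.0517 CPM in *Brd9* KD. The chemokine gene *Ccl5* fell from 3.50 to 0.0901 CPM in *Baf250a* KD and 0.289 CPM in *Brd9* KD. These genes were named for the size of their change, and several means lie near 0. Whether each reached the count minimum only through its higher group is not given here, so their calls are no separate support. The counts and medians of the wider list carry the same limit.

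The comparison with scr was repeated in metal-treated cells. With Cu, 10 of 27 tested members other than *Ifih1* were called in *Baf180* KD (5 lower, 5 higher), 18 of 26 in *Baf250a* KD (10 lower, 8 higher) and 10 of 27 in *Brd9* KD (all lower). Of all tested genes 24.9%, 41.2% and 12.2% were called in the same order. The lower calls made up 10.7%, 20% and 5.27% of them, and the higher calls 14.2%, 21.1% and 6.94%. The count in *Baf180* KD fell to 5 without its Cu replicate 1, and that in *Baf250a* KD to 9 and 11 without its Cu replicate 1 and replicate 2. *Isg15*, *Ifit1*, *Rsad2* and *Cxcl10* were called lower in all 3 lines, against 3.33% of all genes. Some lower calls were of genes that reached the count minimum only through scr, and these are no separate support. They made up 1 of 5 in *Baf180* KD, 5 of 10 in *Baf250a* KD and 3 of 10 in *Brd9* KD. With Cu, *Ifit1* was at 27.0 and 21.8 CPM in scr, 8.20 and 10.5 CPM in *Baf180* KD, 1.01 and 0.482 CPM in *Baf250a* KD and 2.20 and 1.83 CPM in *Brd9* KD. Its log2 fold change was -1.39 ± 0.18 in *Baf180* KD, -4.94 ± 0.28 in *Baf250a* KD and -3.62 ± 0.19 in *Brd9* KD. *Parp14* in *Brd9* KD Cu was at 0.173 and 0.0717 CPM beside 1.75 and 1.79 CPM in scr Cu, a log2 fold change of -3.88 ± 0.52 (edgeR adjusted p = 0.00370). *Tap1* in *Baf250a* KD Cu was at 7.78 and 8.37 CPM beside 0.585 and 0.426 CPM, a log2 fold change of 4.08 ± 0.29 (edgeR adjusted p = 3.16e-05). *Parp14* in *Brd9* KD Cu could be tested only through scr, and *Tap1* in *Baf250a* KD Cu only through the KD libraries. Neither call is separate support.

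With Zn, where *Ifih1* was tested too, 15 of 28 members were called in *Baf180* KD (10 lower, 5 higher), 18 of 27 in *Baf250a* KD (11 lower, 7 higher) and 12 of 28 in *Brd9* KD (10 lower, 2 higher). The share of all tested genes called was 49.9%, 57.5% and 23.2%, so that in *Baf180* KD the members stood near the background. The share called lower was 24.9%, 28.1% and 10.6%, and that called higher was 24.9%, 29.4% and 12.6%. The *Baf250a* KD count rests on its Zn replicate 1 and on the scr Zn libraries: it fell to 5 without the former and to 8 without either scr library, was 20 without the library of 495778 counts, and was 7 with DESeq2. *Ifih1*, *Isg15*, *Ifit1*, *Oasl2*, *Rsad2* and *Cxcl10* were called lower in all 3 lines, against 8.02% of all genes, and *Mavs* and *Tap1* higher, against 9.42%. *Tap1* reached the count minimum only through the KD libraries in each line, so its calls are no separate support. The same holds for lower calls of genes that reached it only through scr. They made up 1 of 10 in *Baf180* KD, 5 of 11 in *Baf250a* KD and 2 of 10 in *Brd9* KD. *Mavs* in *Baf180* KD Zn lost its call with a correction for GC content and length, where its log2 fold change was -0.03. *B2m*, which was higher in untreated *Baf180* KD, was called lower in *Baf180* KD Zn with a log2 fold change of -0.31 ± 0.08 (edgeR adjusted p = 0.0133), at 215 and 179 CPM beside 250 and 233 CPM in scr Zn, and after the same correction it was 0.15. *Eif2ak2* was called lower in *Baf180* KD Zn and *Baf250a* KD Zn, with log2 fold changes of -0.78 and -0.41. In *Baf180* KD the call of *B2m* ended without scr Zn replicate 1 (edgeR adjusted p = 0.0787) and that of *Mavs* without either scr Zn library (0.170 and 0.225). In *Baf250a* KD the calls of *Mavs* and *Eif2ak2* ended without its Zn replicate 1 or either scr Zn library (edgeR adjusted p of 0.0798 to 0.466), and those of *Tap1* and *Oasl2* without its Zn replicate 1 (0.183 and 0.645).

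Across the 9 comparisons of a KD line with scr, *Isg15*, *Ifit1*, *Rsad2* and *Cxcl10* were called lower in all 9, *Oasl2* in 8, and *Ifit3*, *Stat2* and *Mx2* in 6. Of the 13627 genes tested in all 9 comparisons, 2.16% were called lower in all 9, 3.34% in at least 8 and 7.15% in at least 6. *Tap1* was called higher in 7, and *Mavs*, *Parp9* and *Dtx3l* in 6, beside 7.49% of all genes in at least 7 and 10.2% in at least 6. In every Zn comparison and in *Baf250a* KD Cu, *Tap1* reached the count minimum only through the KD libraries, so those calls are no separate support. The comparisons of 1 treatment share their scr libraries. In *Baf250a* KD Cu all 4 of the genes called lower throughout reached the count minimum only through scr. *Rsad2* and *Mx2* did so in all 9 comparisons, *Cxcl10* in every *Baf250a* KD comparison and in *Brd9* KD NT, and *Isg15* also in *Baf250a* KD Zn. There these genes could be tested only because scr was high, so neither their calls nor the stability of those calls is separate support. The calls of *Isg15*, *Ifit1*, *Rsad2* and *Cxcl10* held under each of the 6 other settings tried in every comparison, and those of *Isg15* and *Ifit1* also held without any 1 of the 4 libraries compared. Beside the losses of *Rsad2* in *Brd9* KD NT given above, the call of *Rsad2* in *Baf250a* KD Zn ended without *Baf250a* KD Zn replicate 1 (edgeR adjusted p = 0.308), where the library left has no count of it. That of *Cxcl10* ended without *Baf180* KD Cu replicate 1 in *Baf180* KD Cu, at a log2 fold change of -1.09 (edgeR adjusted p = 0.113), and without *Baf250a* KD Zn replicate 1 in *Baf250a* KD Zn, at -1.53 (edgeR adjusted p = 0.448).

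The second question was whether the metals themselves changed these genes within a line. Few members were called, and in several of these comparisons few of all tested genes were called either. With Cu no member was called in scr or *Brd9* KD by edgeR, beside 0.0333% and 0.274% of all tested genes, and DESeq2 called 0 and 0. An unadjusted edgeR p under 0.05 was reached by 7 of 28 members other than *Ifih1* in scr and by 7 of 24 in *Brd9* KD. Over all tested genes it was reached by 1559 of 15002 in scr and by 2426 of 14978 in *Brd9* KD. With Zn no member was called in *Baf180* or *Brd9* KD by edgeR, beside 0.0197% and 0.0334% of all tested genes, and DESeq2 called 0 and 0. Here 3 of 25 and 0 of 24 members had an unadjusted edgeR p under 0.05, beside 1999 of 15241 and 451 of 14978 of all tested genes.

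In scr, Zn changed 4 of 28 members, or 14.3%, beside 17.6% of all tested genes. *Isg15* went from 12.01 and 14.96 CPM to 8.64 and 8.71 CPM, with a log2 fold change of -0.62 ± 0.17 (edgeR adjusted p = 0.0456). *Ifi35* went from 21.71 and 21.97 CPM to 16.1 and 14.5 CPM, and *Irf1* from 39.6 and 40.9 CPM to 29.5 and 31.6 CPM, with log2 fold changes of -0.50 ± 0.11 and -0.38 ± 0.09. *Eif2ak2* went up from 27.2 and 19.8 CPM to 40.2 and 41.1 CPM, a log2 fold change of 0.81 ± 0.18 (edgeR adjusted p = 0.0305). The 2 treatments did not overlap for any of the 4 genes, which adds nothing to calls made on the same libraries.

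The NT and Zn libraries of scr also differed in how gene levels followed base composition. The mean slope of a gene's level on its GC content, in log2 units per 10 percentage points, was 0.21 in scr NT and -0.30 in scr Zn. GC content was taken from the longest transcript of a gene. It is 43.9% for *Eif2ak2*, and 52.8%, 52.8% and 54.1% for *Isg15*, *Irf1* and *Ifi35*. Over the 29 members, Spearman's rho between GC content and the Zn response of scr was -0.741, as a description over genes of the same libraries. With a correction for GC content and length no member was called in scr Zn by edgeR, and none with a replicate block, which does not involve base composition. The part of base composition in the 4 calls was not tested. The count was also 0 without scr NT replicate 2, without scr Zn replicate 1 and without scr Zn replicate 2.

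**Figure D4:**
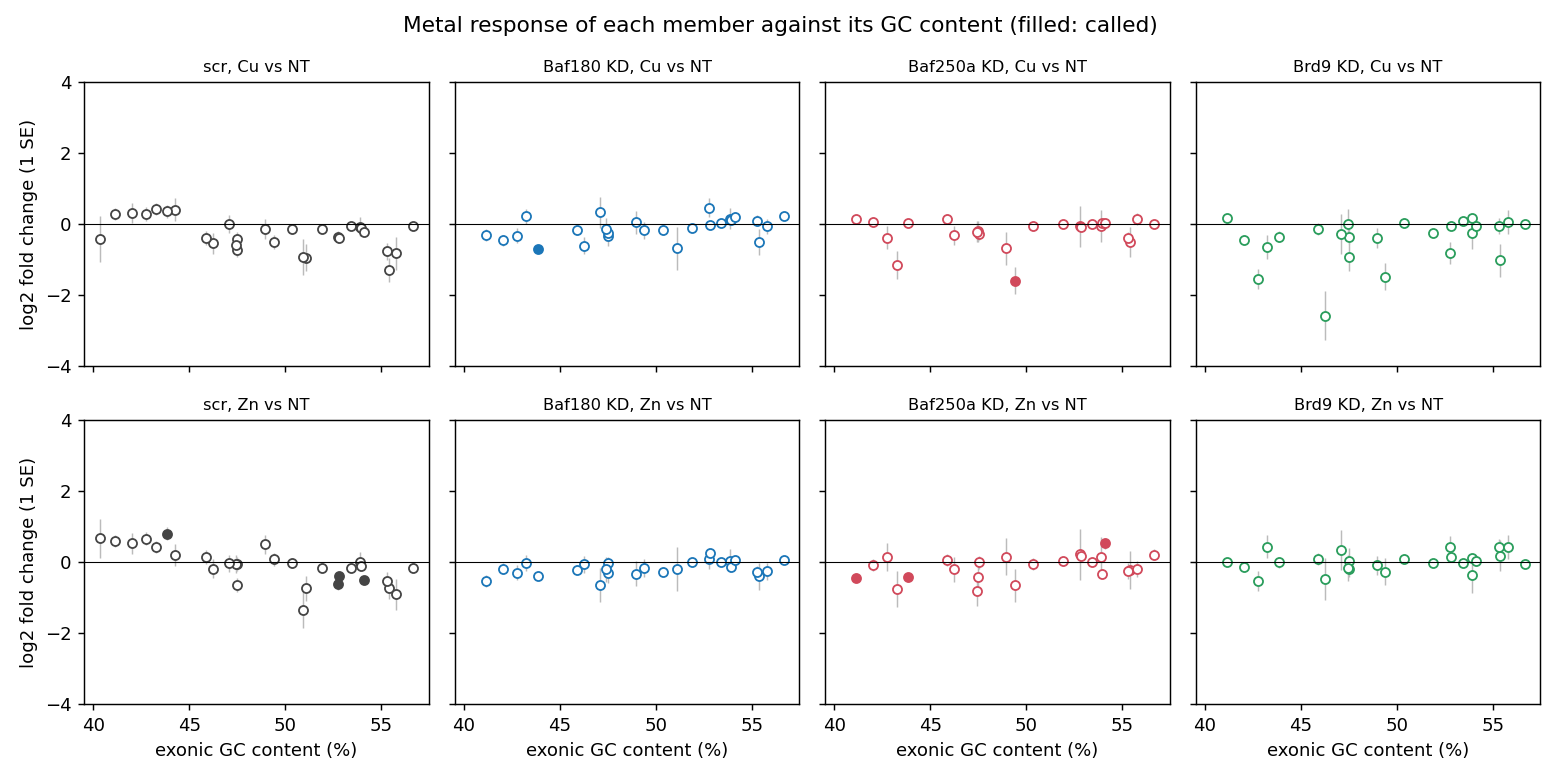
Log2 fold change of each tested member with Cu (top) or Zn (bottom) over NT in each line, against the GC content of its longest transcript in percent. Bars are 1 SE, and filled points were called. The slope over the 29 members is downward for scr Zn (rho = -0.741), and the rho of the other 7 panels lies between -0.416 and 0.43.

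In *Baf180* KD, Cu lowered 1 of 25 members, *Eif2ak2*, beside 13.8% of all tested genes. It went from 30.9 and 30.4 CPM to 18.2 and 20.7 CPM, with a log2 fold change of -0.69 ± 0.12 (edgeR adjusted p = 0.0107), and the call was lost without *Baf180* KD Cu replicate 1 (edgeR adjusted p = 0.0833) and without its NT replicate 2 (0.0929). In *Baf250a* KD, Cu lowered 1 of 23, *Oasl2*, beside 1.27% of all tested genes, from 2.60 and 1.93 CPM to 0.869 and 0.602 CPM, a log2 fold change of -1.59 ± 0.39 (edgeR adjusted p = 0.0346). DESeq2 gave it no adjusted p, and the call was lost with the GC correction and without *Baf250a* KD Cu replicate 1, Cu replicate 2 or NT replicate 1. In *Baf250a* KD, Zn changed 3 of 23, beside 15.9% of all tested genes: *Ifi35* rose from 16.3 and 16.3 CPM to 23.1 and 29.6 CPM, *Eif2ak2* fell from 40.5 and 39.7 CPM to 30.7 and 21.7 CPM, and *B2m* fell from 365 and 349 CPM to 241 and 317 CPM. The mean GC slope was -0.13 in *Baf250a* KD NT and 0.21 in *Baf250a* KD Zn, no member was called after the GC correction or with DESeq2, which gave *Ifi35* no adjusted p, and *B2m* then had a log2 fold change of 0.73 in place of -0.43. The 3 calls held without the library of 495778 counts, and each ended without *Baf250a* KD Zn replicate 1 and without either NT replicate. Over these fits the log2 fold change ran from 0.49 to 0.86 for *Ifi35*, from -0.88 to -0.39 for *Eif2ak2* and from -0.57 to -0.17 for *B2m*.

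The third question was whether a KD line responded to a metal differently from scr, which was tested as a difference between log2 fold changes in a fit of all 24 libraries. For Cu, 2 of 28 members other than *Ifih1* were called in *Baf180* KD, beside 12.8% of all tested genes. None was called in *Baf250a* or *Brd9* KD by edgeR, where 0.0121% and 0.0363% of all genes were called, and DESeq2 called 0 and 0. An unadjusted edgeR p under 0.05 was reached there by 4 and 11 of the 28 members, beside 1274 and 2759 of 16524 genes. The Cu response of *Eif2ak2* was lower in *Baf180* KD than in scr by a log2 difference of -1.02 ± 0.21 (edgeR adjusted p = 0.00976), and that of *Bst2* was higher by 0.93 ± 0.28 (edgeR adjusted p = 0.0369). Neither difference was called after the GC correction. That of *Eif2ak2* was also lost without *Baf180* KD Cu replicate 1 (edgeR adjusted p = 0.0759) and scr NT replicate 2 (0.110), and that of *Bst2* without any of 5 of the 8 libraries compared, which were both *Baf180* KD Cu replicates and replicate 2 of *Baf180* KD NT, scr Cu and scr NT (edgeR adjusted p of 0.0541 to 0.397).

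For Zn, 4 of 28 members were called in *Baf180* KD, 5 in *Baf250a* KD and 6 in *Brd9* KD, or 14.3%, 17.9% and 21.4%, beside 28.7%, 30.5% and 11.1% of all tested genes. The responses of *Ifi35* and *Irf1* were higher than in scr, and that of *Eif2ak2* was lower, in each of the 3 lines. Without *Baf250a* KD Zn replicate 1 the difference for *Irf1* in *Baf250a* KD was 0.040 and was not called. The differences for *Eif2ak2* were -1.09 ± 0.22, -1.17 ± 0.23 and -0.72 ± 0.21 in *Baf180*, *Baf250a* and *Brd9* KD. All 3 contrasts share the scr NT and Zn libraries, whose GC slopes differ as given above, and after the GC correction 2, 3 and 0 members were called. No member was called in *Brd9* KD without *Brd9* KD NT replicate 2, *Brd9* KD Zn replicate 1, scr NT replicate 2 or either scr Zn replicate, and 3 were without *Brd9* KD Zn replicate 2. In *Baf250a* KD 2 were called without scr NT replicate 2, and 3 without *Baf250a* KD NT replicate 2, its Zn replicate 1 or scr Zn replicate 1.

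*Ifih1* was lower in every KD group than in the scr group of the same treatment. In scr it was at 9.57 and 6.96 CPM without metal, 9.18 and 10.9 CPM with Cu, and 12.3 and 13.5 CPM with Zn. In *Baf180* KD it was at 5.38 and 6.01 CPM, 3.95 and 5.39 CPM, and 4.69 and 4.68 CPM in the same order of treatments. The *Baf180* KD libraries thus lay below all 6 scr libraries, with the Zn pair furthest below its scr counterpart.

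In *Baf250a* KD the level of *Ifih1* was 1.94 and 2.17 CPM without metal, 1.51 and 1.63 CPM with Cu, and 2.29 and 1.97 CPM with Zn, the last of these from the library of 495778 counts. In *Brd9* KD it was 4.19 and 3.27 CPM without metal, 1.21 and 1.51 CPM with Cu, and 2.29 and 3.07 CPM with Zn. The *Brd9* KD libraries with Cu were thus below the untreated ones and were among the 3 lowest of all 24 libraries.

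**Figure D5:**
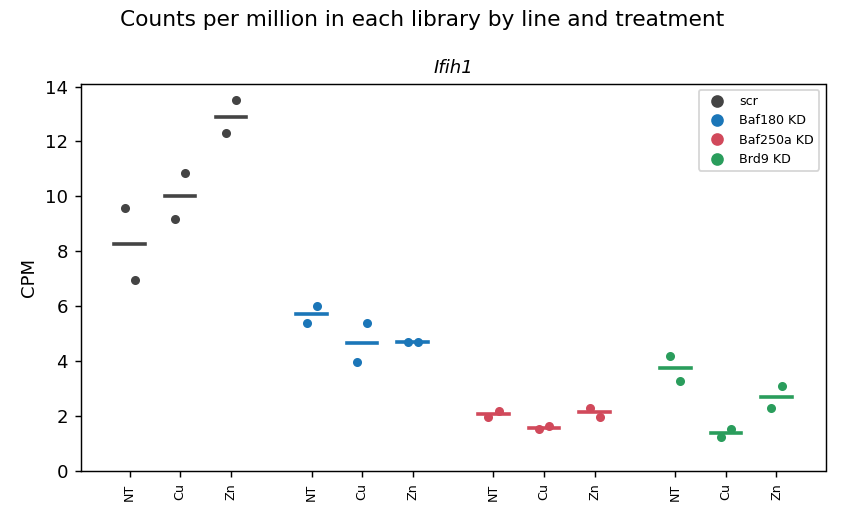
CPM of *Ifih1* in each library (points) with the mean of the 2 replicates (bars), by line and treatment. The scr libraries lie between 6.96 and 13.5 CPM and every KD library lies at or below 6.01 CPM.

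The response of *Ifih1* to Cu, given as a description because it is what the gene was chosen for, was a log2 fold change of 0.29 ± 0.19 in scr, -0.32 ± 0.20 in *Baf180* KD, -0.38 ± 0.32 in *Baf250a* KD and -1.54 ± 0.28 in *Brd9* KD. The scr groups with and without Cu overlapped, as did the *Baf180* KD groups, whereas with Cu the *Baf250a* and *Brd9* KD groups lay below their untreated libraries. With the GC correction the log2 fold change with Cu was 0.094 in scr and -0.020 in *Baf180* KD. It was 0.052 in scr without scr NT replicate 2 and 0.57 without NT replicate 1, and in *Baf180* KD -0.12 without its Cu replicate 1 and -0.56 without Cu replicate 2. In *Brd9* KD it lay between -1.70 and -1.35 under every setting tried. That range is no support for the response, because *Ifih1* was chosen for it. With Zn the log2 fold change was 0.67 in scr, -0.29 in *Baf180* KD, 0.15 in *Baf250a* KD and -0.53 in *Brd9* KD. The Zn value of scr was 0.18 with the GC correction, 0.43 without scr NT replicate 2 and 0.92 without NT replicate 1, and that of *Baf250a* KD was -0.051 without its Zn replicate 1. The GC content of *Ifih1* is 42.8%, which is lower than the median of 49.4% over the tested members.

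The comparison of KD with scr in Zn uses no library of the Cu response, and there *Ifih1* was called lower in every line. Its log2 fold change was -1.48 ± 0.13 in *Baf180* KD (edgeR adjusted p = 3.43e-05), -2.49 ± 0.24 in *Baf250a* KD (edgeR adjusted p = 1.22e-13) and -2.29 ± 0.18 in *Brd9* KD (edgeR adjusted p = 8.69e-05). After the GC correction the values were -1.26, -2.26 and -2.18, all still called. In *Baf250a* KD Zn, *Ifih1* had 33 counts in replicate 1 and 1 count in replicate 2, the library of 495778 counts. In that comparison edgeR called 18 members and DESeq2 called 7, so the small edgeR adjusted p of *Ifih1* there is uncertain. *Dhx58* was not called in any line with Zn, and *Mavs* was called higher in all 3.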

How the data were processed

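RNA-seq was measured in 24 libraries from 12 groups of 2 replicates. Per the study's methods, the authors removed rRNA with RNase H, prepared directional libraries, aligned reads to mm10 with STAR, kept uniquely mapped reads and counted read pairs on genes by strand with featureCounts. The counts deposited by the authors are whole numbers and were not normalized. The authors also deposited tables of their DESeq2 comparisons (log2 fold changes, standard errors, p-values and adjusted p-values), which were not used. Groups were taken from sample titles, because a treatment tag in the labels contradicts some of them. Nothing in the labels says that replicates came from separate transductions, so p-values measure the spread between these samples.

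Counts were analysed in R 4.3.3 with edgeR 4.0.16 (TMM, filterByExpr, glmQLFit and glmQLFTest) over all genes, calling genes whose p, adjusted by Benjamini and Hochberg, was under 0.05, whatever the size of the change. A KD was compared with scr on the 4 libraries of a treatment, a metal with NT on the 6 libraries of a line, and differences between responses on all 24 libraries, where 16524 genes were tested. CPM use TMM-scaled library sizes, and a standard error is the log2 fold change divided by the square root of F. GC content and transcript length were those of the longest transcript of a gene in GENCODE M21, which matched 53291 symbols. Levels per kb used the merged exon length of the gene. Alternatives were DESeq2 1.42.0, RLE size factors, all genes with at least 1 count, all libraries in the fit, a replicate block, a GC and length correction with splines of 5 degrees of freedom, and leaving out each library. The script was tested on simulated data.

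Members and lists were chosen with earlier results of these data known. Values by library are given for *Ifih1*, for the 8 members with the largest log2 fold change among those called in an untreated KD line at a mean of at least 1 CPM, and for members called in a metal response, and from the wider list the 3 largest rises and falls per untreated line. Other members were named by role. *Ifih1* is left out of counts except in KD against scr with Zn.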

Additional observations from a re-analysis of the deposited data

Results flagged for a closer look

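Each of the following is a difference between the metal response of a KD line and that of scr, in log2 units, that passed an edgeR adjusted p under 0.05 in the fit of all 24 libraries. For Cu in *Baf180* KD they were *Bst2* at 0.93 and *Eif2ak2* at -1.02. For Zn in *Baf180* KD they were *Ifi35* at 0.69, *Irf1* at 0.74, *Eif2ak2* at -1.09 and *B2m* at -1.01. For Zn in *Baf250a* KD they were *Ifi35* at 1.14, *Irf1* at 0.60, *Irf3* at 0.47, *Eif2ak2* at -1.17 and *B2m* at -0.93. For Zn in *Brd9* KD they were *Isg15* at 1.15, *Ifi35* at 0.63, *Irf1* at 0.61, *Bst2* at 1.06, *Eif2ak2* at -0.72 and *Tap1* at 1.38. *Eif2ak2*, *Ifi35* and *Irf1* appear for Zn in all 3 lines, and these contrasts share the scr libraries. *Irf3* in *Baf250a* KD and *Tap1* in *Brd9* KD were called under none of the 5 other settings, of which DESeq2 gave *Tap1* no adjusted p, while *Irf1* and *Eif2ak2* in *Baf180* KD and *Ifi35* and *Eif2ak2* in *Baf250a* KD were called under all 5 and without any 1 of the libraries compared. *Irf1* in *Baf250a* KD was called under all 5 but in 4 of 8 fits without 1 library, and fell to 0.040 without *Baf250a* KD Zn replicate 1.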

How the results depend on the processing

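The samples share replicate numbers, but the labels give no common origin for a number, and the correlation of replicate differences between the groups compared ran from -0.186 to 0.247 over 17 pairs of groups. With the replicate block, members called went from 4 to 0 in scr with Zn, from 1 to 2 in *Baf180* KD with Cu and from 2 to 1 for the Cu response of *Baf180* KD minus scr, and the other counts stayed within 1.5 times. After correcting for GC content and transcript length, the counts were 0 for scr with Zn, 0 for *Baf250a* KD with Cu and with Zn, and 0 for the Cu response of *Baf180* KD minus scr. They were 2, 3 and 0 for the Zn responses of *Baf180*, *Baf250a* and *Brd9* KD minus scr. DESeq2 called 7 for *Baf250a* KD against scr in Zn, 0 for *Baf250a* KD with Cu and with Zn, 1 for the Cu response of *Baf180* KD minus scr and 2 for the Zn response of *Brd9* KD minus scr. With all genes of at least 1 count, the counts were 2 for scr with Cu, 3 for *Baf180* KD with Cu, 1 for *Baf180* KD with Zn, 2 for *Brd9* KD with Cu, and 4, 1 and 4 for the Cu responses of *Baf180*, *Baf250a* and *Brd9* KD minus scr. With all 24 libraries in the fit they were 9 for scr with Zn, 1 for *Baf250a* KD with Zn and 1 for *Brd9* KD with Cu.

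Without 1 library at a time, counts against scr ran from 8 to 16 (*Baf180* KD NT), 16 to 21 (*Baf250a* KD NT), 5 to 16 (*Brd9* KD NT), 5 to 11, 9 to 19 and 7 to 15 with Cu, and 11 to 19, 5 to 20 and 11 to 16 with Zn, in the same order of lines. Metal responses ran from 0 to 3 (scr with Zn), 0 to 2 (*Baf180* KD with Cu), 0 to 1 (*Baf250a* KD with Cu) and 0 to 4 (*Baf250a* KD with Zn), and differences from scr from 0 to 4 (Cu, *Baf180* KD), 0 to 0 (Cu, *Baf250a* KD), 0 to 1 (Cu, *Brd9* KD), 3 to 6 (Zn, *Baf180* KD), 2 to 5 (Zn, *Baf250a* KD) and 0 to 6 (Zn, *Brd9* KD). The fits without *Baf250a* KD Zn replicate 2 in comparisons that do not use it were chosen after seeing the data.

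Log2 values that changed sign were, with the GC and length correction, *Mavs* at -0.031 and *B2m* at 0.15 in *Baf180* KD against scr with Zn, *B2m* at 0.73 in *Baf250a* KD with Zn and *B2m* at 0.53 for its Zn response minus scr, and, without *Baf250a* KD Zn replicate 1, which leaves the library of 495778 counts alone and assumed to vary like the other group, *Ifit3* and *Parp9* in *Baf250a* KD against scr with Zn, whose log2 fold changes ran from -0.99995 to 0.073 and from -0.37 to 1.25 over the fits without 1 library. The cause of the other changes was not tested. DESeq2 gave no adjusted p for 5 values of named members. Members with under about 50 counts in a group, such as *Rsad2*, *Mx2* and *Usp18*, are limited by depth.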

Other observations

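Several members are neighbours in the GRCm38 annotation. *Dtx3l* and *Parp9* start on opposite strands of chromosome 16 with an overlap of 682 bases, and both were higher in untreated *Baf180* and *Baf250a* KD and not called in *Brd9* KD. *Tap1* and *Psmb9* are arranged likewise on chromosome 17 with an overlap of 212 bases. *Psmb9* had 32 counts in all 24 libraries, and in the untreated libraries it was at 0 and 0.0455 CPM in scr, 0.269 and 0.206 CPM in *Baf180* KD, 0.0388 and 0.0471 CPM in *Baf250a* KD and 0 in both *Brd9* KD libraries, which is too few counts to rank the lines. *Ifit2*, *Ifit3* and *Ifit1* lie in this order on the plus strand of chromosome 19, with 7111 bases between the first pair and 52139 between the second, and *Ifit2* was not called in the untreated lines in which both of its neighbours were lower. Counting by strand separates reads of overlapping genes on opposite strands.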
